A study of Homo sapiens with 48 samples.

Results

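The genes described here are 43 genes of DNA replication and S phase, chosen by name for their role in replication, by a rule that uses no measured value but with earlier results of these data known. The deposited gene lists hold 58870 genes, the 43 were found in each of them, and all 43 had enough reads to be tested in every comparison (the lowest count of any of them in any library was 19 reads). The study treated uveal melanoma lines, which come from the pigment cells of the eye, and sequenced poly-A RNA. FHT-1015 blocks the ATPases SMARCA4 and SMARCA2 of the BAF chromatin remodeling complexes. IDE196 blocks protein kinase C. The groups used are 92-1, MEL202 and MP41 cells given FHT-1015 or the solvent DMSO for 4 h or 24 h, and 92-1 cells given IDE196 or a DMSO set of its own for 4 h or 24 h. That makes 48 libraries in 16 groups of 3. The labels give the genotype of every line as WT, describe the 3 libraries of a group as biological replicates without saying whether they were separate cultures, and give no dose, so p-values measure the spread between these libraries. Each line is a single line and stands for no other tumour.

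DNA replication starts in G1, when the origin recognition complex with CDC6 and CDT1 loads the ring of MCM2 to MCM7 onto DNA, a step called licensing. At the start of S phase, cyclin E and its kinase help to recruit CDC45 and the GINS proteins, which turn the MCM ring into a moving helicase. Primase and the polymerases alpha, delta and epsilon then copy the strands, PCNA clamps the polymerases to DNA, and enzymes such as ribonucleotide reductase supply the nucleotides. Many of these genes are textbook targets of the E2F transcription factors, are transcribed as cells enter S phase, and are low in cells that have stopped dividing. In uveal melanoma an active Gq subunit signals through protein kinase C, among other routes, to growth pathways.

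The libraries held between 11394088 and 32317711 reads in genes, and between 17592 and 27150 genes had a read. The reads fell on either strand about equally (49.73% to 50.11% on the first), so a read that lies in a gene and its antisense neighbour cannot be given to either. The biological coefficient of variation, the spread between replicates that counting does not explain, was 0.117 in 92-1 with FHT-1015, 0.112 in 92-1 with IDE196, 0.217 in MP41 and 0.294 in MEL202. The 7 melanocyte markers looked at (PMEL, MLANA, TYR, TYRP1, DCT, SOX10 and MITF) summed to between 2857 and 22187 CPM (counts scaled to a common library size) in every library. The 12 markers of blood, epithelium, endothelium and fibroblasts summed to between 3.41 and 43.8 CPM, and the T cell marker CD3E had no read in any MEL202 or MP41 library.

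In untreated cells, levels per length (RPKM, reads scaled to gene length and library size, mean ± SD, n = 3, DMSO at 4 h) spanned a wide range. The 92-1 values are of the DMSO set of FHT-1015, and the DMSO set of IDE196 differed from it in some members. PCNA held 6.35% of the members' summed CPM in the DMSO libraries of FHT-1015 and 4.19% in those of IDE196. PCNA, the sliding clamp, stood at 206 ± 24.7 RPKM in 92-1, 115 ± 63.4 in MEL202 and 164 ± 14.1 in MP41. MCM7, a subunit of the helicase ring, stood at 134 ± 10.8, 95.9 ± 19.4 and 109.8 ± 6.103 RPKM in the same order. TK1, the thymidine kinase of the salvage route, stood at 85.3 ± 12.9, 189.7 ± 56.03 and 98.3 ± 1.12 RPKM. These were among the highest, while POLA2, the B subunit of polymerase alpha, was among the lowest at 1.48 ± 0.277, 1.31 ± 0.414 and 1.47 ± 0.161 RPKM. The lines differed in some members: the ribonucleotide reductase subunit RRM2 stood at 19.2 ± 2.24 and 22.3 ± 4.48 RPKM in 92-1 and MEL202 but at 68.02 ± 4.96 in MP41, where the ranges of the libraries did not overlap those of the other lines. MCM3 and MCM4 went the other way, with MCM4 at 78.6 ± 8.46, 89.7 ± 10.8 and 26.8 ± 0.821 RPKM. These level differences were not tested here.

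Because the members moved together at 24 h, their promoters were searched for letters that replication genes are known to share. RefSeq's table (build GRCh38.p14, 250 bases before to 50 bases after each start) held 38 of the 43 members. MCM4, MCM5, GINS4, RPA2 and CCNE2 had no entry there. The letters searched on both strands were TTTCCCGC, TTTCGCGC, TTTGCCGC and TTTGGCGC (E2F), CCAAT (NF-Y), TTTGAA (a part of the CHR element of G2/M genes) and GGGCGG (a GC box). The E2F letters can overlap themselves on opposite strands. Stretches of 8 promoters, before the start and outside annotated exons, are shown in the gene's own orientation (5′ to 3′), as examples with 4, 1 or none of the E2F letters among members described here. Capitals mark E2F or CCAAT letters on either strand. They come from MCM6 (chr2:135876444-135876633, minus strand), PCNA (chr20:5126627-5126782, minus), MCM3 (chr6:52284882-52284942, minus), GMNN (chr6:24775293-24775412, plus), UHRF1 (chr19:4909944-4910044, plus), POLA1 (chrX:24693738-24693837, plus), CCNE1 (chr19:29811778-29811897, plus) and MCM10 (chr10:13161434-13161553, plus).
MCM6: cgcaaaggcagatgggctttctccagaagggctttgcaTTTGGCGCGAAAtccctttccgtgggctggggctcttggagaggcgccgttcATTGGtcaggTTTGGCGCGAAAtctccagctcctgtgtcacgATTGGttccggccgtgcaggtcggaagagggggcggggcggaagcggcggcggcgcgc
PCNA: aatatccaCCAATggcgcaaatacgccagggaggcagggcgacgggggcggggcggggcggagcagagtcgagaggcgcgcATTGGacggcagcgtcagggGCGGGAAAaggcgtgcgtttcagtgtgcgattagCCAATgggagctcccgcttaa
MCM3: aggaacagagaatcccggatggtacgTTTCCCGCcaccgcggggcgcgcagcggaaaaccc
GMNN: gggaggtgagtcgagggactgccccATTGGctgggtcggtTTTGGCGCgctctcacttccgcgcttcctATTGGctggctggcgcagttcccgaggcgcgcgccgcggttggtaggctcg
UHRF1: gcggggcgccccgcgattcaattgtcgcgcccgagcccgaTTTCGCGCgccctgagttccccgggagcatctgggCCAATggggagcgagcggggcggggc
POLA1: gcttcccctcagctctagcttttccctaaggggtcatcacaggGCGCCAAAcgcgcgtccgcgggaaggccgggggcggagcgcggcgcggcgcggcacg
CCNE1: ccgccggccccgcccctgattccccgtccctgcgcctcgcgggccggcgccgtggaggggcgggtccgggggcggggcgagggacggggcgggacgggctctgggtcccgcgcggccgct
MCM10: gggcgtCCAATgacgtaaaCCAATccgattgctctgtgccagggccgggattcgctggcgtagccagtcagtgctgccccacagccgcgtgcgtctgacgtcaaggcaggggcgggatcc

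The E2F letters stood in the promoters of 20 of the 38 members (52.6%), against 3.99% of all 27305 genes of the table and 3.31% of its 35116 promoters. Of the other replication genes described further on, 12 of 37 with an entry had them (32.4%), and of the G2/M genes 3 of 25 (12%). MCM6 had 4 matches in the stretch shown, with TTTGGCGC on the forward strand at 2 places and TTTCGCGC on the reverse strand overlapping it at both. CCNE1 and MCM10 had none in theirs, though MCM10 had the NF-Y letters. Those stood in 60.5% of members against 39.7% of all genes and 84% of the G2/M genes. The letters TTTGAA stood in 1 of 38 members (2.63%), in 18.2% of all genes and in 72% of the G2/M genes. GC box letters were in 76.3% of members and 48.3% of all genes. A match only describes the letters in this window, and no binding was measured.

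The summed level of the 43 genes had means between 3947 and 4881 CPM in the DMSO groups, and after 24 h of either drug it was at 24.6% to 43.4% of that of the matching DMSO group. In 92-1 the sum was 4749 ± 415 CPM (SD, n = 3) with DMSO and 1167 ± 186 CPM with FHT-1015 at 24 h, or 24.6% of the DMSO value. MEL202 went from 4139 ± 143 to 1796 ± 45.1 CPM (43.4%), and MP41 from 4653 ± 139 to 1878 ± 108 CPM (40.4%). With IDE196 the 92-1 sum went from 4037 ± 286 to 1172 ± 81.6 CPM (29.02%). At 4 h the sums were 83.1% of DMSO in 92-1 with FHT-1015, 94.6% in MEL202, 98.97% in MP41 and 99.2% in 92-1 with IDE196. In bulk RNA, fewer cells in S phase and less of these RNAs in each cell cannot be told apart. CPM are shares of a library, so a sum says nothing of the RNA per cell.

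**Figure D1:**
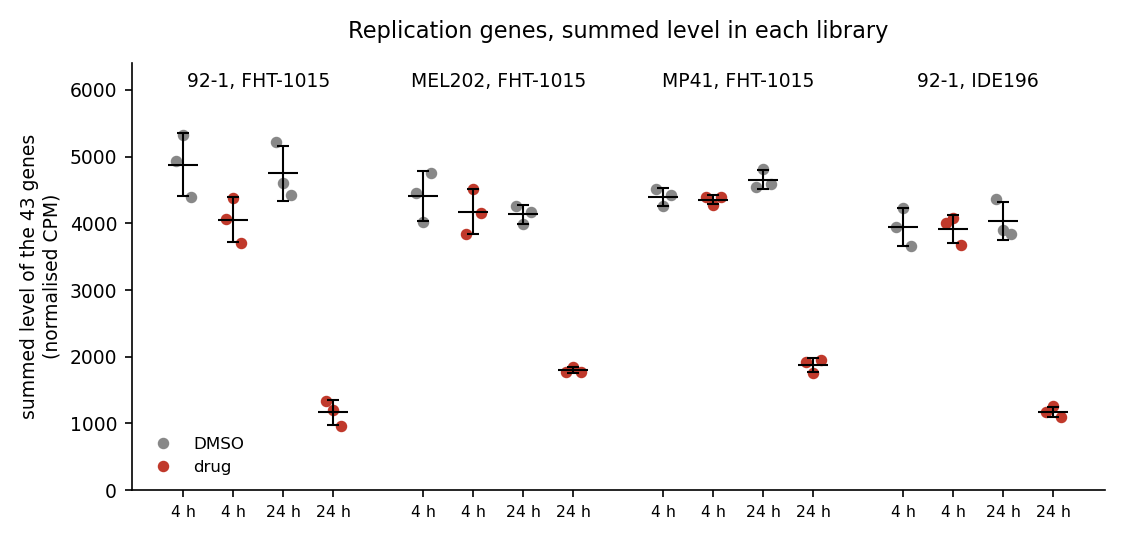
Summed level of the 43 replication genes in each of the 48 libraries (y axis, CPM), by line, drug set and time (x axis); points are libraries, bars the mean with its SD, grey DMSO and red the drug. At 24 h the drug libraries lie between 968 and 1952 CPM, and the lowest DMSO library of any group lies at 3666 CPM.

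With 2 times per drug, the design asks how soon the genes moved. After 4 h of FHT-1015, 92-1 cells had lower levels of 12 of the 43 members and a higher level of 1, by edgeR's quasi-likelihood test with Benjamini-Hochberg adjusted p under 0.05 over all genes tested. Of all genes tested in this comparison 16.7% were called lower and 12.9% higher, so the share of members called lower (12 of 43) was above the background, and the members' median log2 fold change was -0.18 beside 0.007 for all genes. The genes that fell were led by UHRF1, cyclin E1 and the licensing factors CDC6 and MCM2. The same drug for the same time gave no called member in MEL202 (median -0.11, 2 of 43 at an unadjusted p under 0.05) or MP41 (median -0.02, 0 of 43 unadjusted), and DESeq2 and limma-voom called none there either. The background there was 0.522% lower and 0.157% higher in MEL202, and 0.154% lower and 0.0708% higher in MP41, so few genes of any kind were called at 4 h in these lines.

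UHRF1, which reads hemimethylated DNA behind the fork and recruits the maintenance methyltransferase, had the largest early fall. Its gene lies on chromosome 19, from 4903080 to 4962154 (GRCh38, plus strand). The 92-1 libraries with FHT-1015 at 4 h held 65.5, 83.1 and 67.5 CPM, and those with DMSO 155, 178 and 149 CPM. The groups did not overlap, and the log2 fold change was -1.16 ± 0.12, adjusted p = 3.67e-06. CCNE1, the cyclin that drives CDK2 into S phase (chromosome 19, 29811898 to 29824308, plus strand), held 8.64, 9.46 and 8.74 CPM with the drug and 18.5, 15.5 and 16.9 CPM with DMSO, again with no overlap (-0.92 ± 0.11, adjusted p = 1.52e-05). CDC6, the loader of the MCM ring, went from 139, 141 and 118 CPM to 76.4, 90.4 and 62.98 CPM (-0.79 ± 0.15, adjusted p = 0.000852). MCM2, a ring subunit, went from 82.5, 103 and 88.7 to 58.7, 56.3 and 46.7 CPM (-0.76 ± 0.16, adjusted p = 0.00205), and both genes' libraries separated fully. The other members called lower were CHAF1A (-0.68), CCNE2 (-0.64), CLSPN (-0.55), MCM4 (-0.52), ORC1 (-0.52), ORC6 (-0.43), GINS3 (-0.42) and PCNA (-0.36). CCNE2 was at -0.39 (adjusted p = 0.0211) with reads summed over the stranded columns.

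A single member rose at 4 h of FHT-1015. POLE2, the B subunit of the leading strand polymerase (chromosome 14, 49643555 to 49688422, minus strand), held 25.3, 25.5 and 21.2 CPM after 4 h of FHT-1015 in 92-1 and 17.2, 15.1 and 13.6 CPM with DMSO. Every drug library was above every DMSO library (0.66 ± 0.12, adjusted p = 0.000773). By 24 h the same gene was below DMSO, at 5.46, 5.15 and 4.71 against 18.5, 17.4 and 15.04 CPM (-1.74 ± 0.14, adjusted p = 3.63e-08). The difference between the times was itself past the test (-2.39 ± 0.18, adjusted p = 1.04e-07). In MEL202 the 4 h value was 0.48 ± 0.36 and in MP41 0.19 ± 0.34, both with overlapping libraries and neither called.

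By role, 5 of 11 licensing genes, 1 of 6 genes of helicase activation, 1 of 8 genes of the clamp, its loader and strand joining, 2 of 3 genes of chromatin behind the fork, 1 of 2 of the fork checkpoint and both cyclins E were lower in 92-1 at 4 h of FHT-1015. None of the 4 nucleotide supply genes and none of the 7 polymerase and primase genes was lower. Beside the 16.7% of all genes called lower, counts as small as 0 or 1 in a role cannot be read as a difference from the background. The 7 calls without UHRF1, CDC6, MCM2, MCM4, CHAF1A and CCNE1 (POLE2 among them) were lost under at least 1 other setting or without 1 library. With all 48 libraries in one fit 6 members were called in place of 13, and without DMSO replicate 2 or FHT-1015 replicate 3 of the 4 h groups 8 were.

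**Figure D2:**
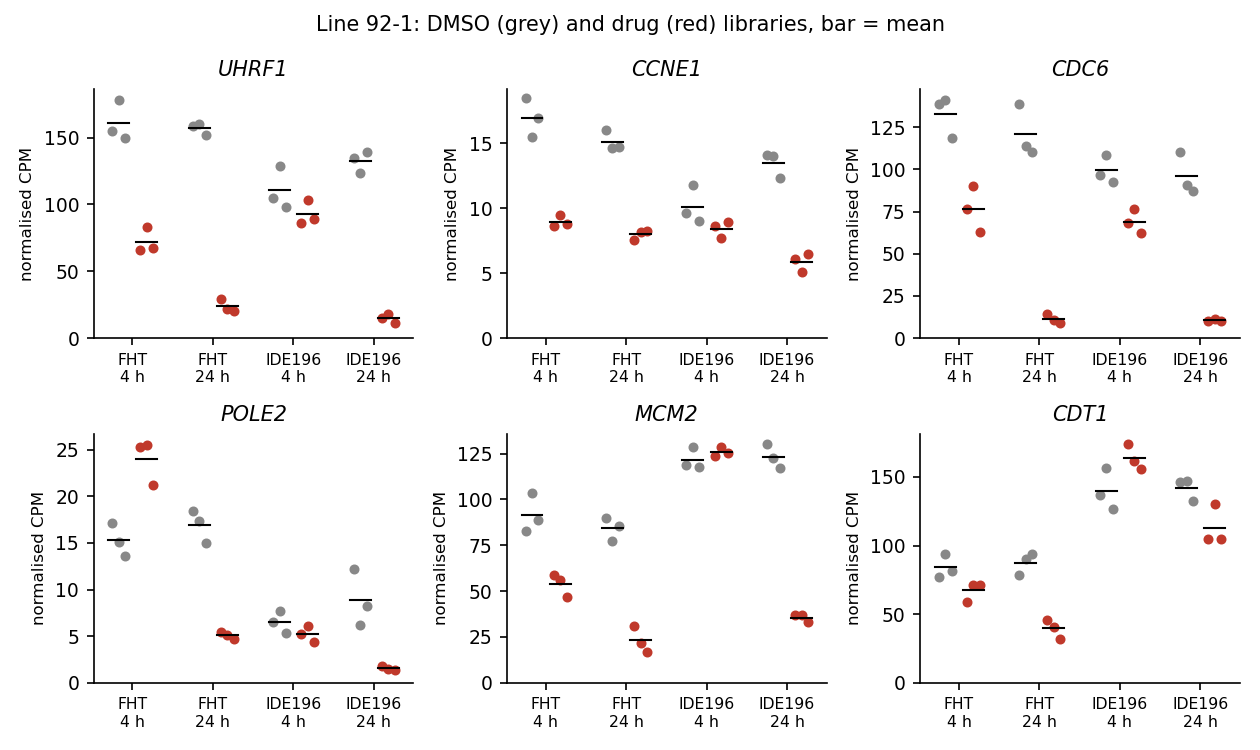
CPM of UHRF1, CCNE1, CDC6, POLE2, MCM2 and CDT1 in each 92-1 library (y axis, CPM) by drug set and time (x axis); grey points are DMSO, red points the drug, bars the means. UHRF1 at 4 h of FHT-1015 sits at 65.5 to 83.05 CPM below DMSO at 149 to 178 CPM, and POLE2 is above DMSO at 4 h and below it at 24 h.

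After 24 h of FHT-1015 the whole set was lower in 92-1: 43 of 43 members were called lower (background 31.4% lower and 29.2% higher), with a median log2 fold change of -2.02 and a range from -3.44 (CDC6) to -0.86 (POLE). In MEL202 36 of 43 were lower (background 10.1% lower, 8.69% higher; median -1.35), and in MP41 41 of 43 (background 18.7% lower, 17.4% higher; median -1.41). No member was higher in any line. Over all genes the medians were -0.001, -0.006 and 0.065. The 3 lines share no control libraries, and 36 members were lower in all 3. RRM1, TIMELESS, RPA2, POLD1 and POLE were lower in 2 lines, and the primase subunits PRIM1 and PRIM2 in 92-1 alone, though the difference between lines was not past the test for either primase gene.

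**Figure D3:**
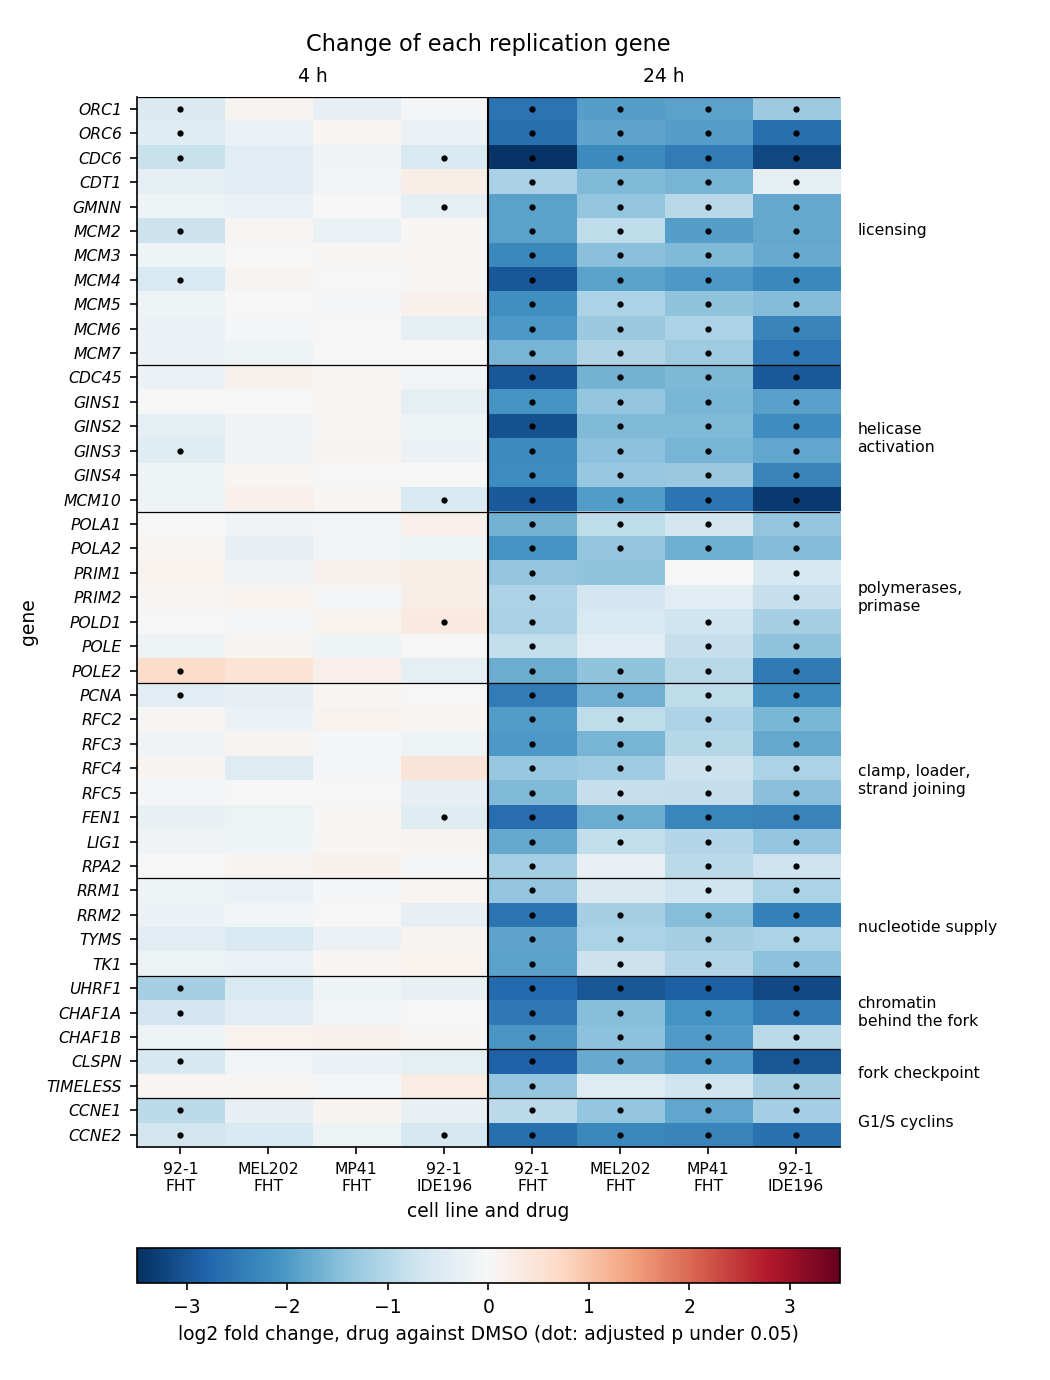
Log2 fold change of each of the 43 genes (rows, grouped by role) in the 8 comparisons of a drug with its own DMSO (columns); blue is lower and red higher with the drug, and a dot marks an adjusted p under 0.05. The 24 h columns are blue apart from PRIM1 in MP41 (-0.02), while at 4 h dots appear in 92-1 alone.

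All 11 licensing genes were lower in every line at 24 h, with medians of -2.14 in 92-1, -1.45 in MEL202 and -1.63 in MP41. CDC6 (chromosome 17, 40287633 to 40304657, plus strand) was the member with the largest fall in 92-1, from 139, 114 and 110.2 CPM with DMSO to 14.2, 10.5 and 8.73 CPM (-3.44 ± 0.17, adjusted p = 2.15e-10). MEL202 libraries held 94.8, 87.2 and 90.7 CPM with DMSO and 18.3, 19.4 and 20.01 CPM with FHT-1015 (-2.24 ± 0.17, adjusted p = 2.33e-06). In MP41 they held 168, 123 and 188 and 22.7, 26.5 and 38.2 CPM (-2.45 ± 0.22, adjusted p = 2.71e-06). The drug and DMSO libraries lay far apart in each line, and the lines differed in the size of the fall (adjusted p = 0.00542). CDT1, the partner of CDC6 in loading the ring, fell less in 92-1, from 78.3, 90.4 and 93.5 to 46.04, 40.98 and 31.7 CPM (-1.15 ± 0.13, adjusted p = 2e-06). In MEL202 CDT1 went from 80.4, 72.5 and 76.3 to 23.6, 27.1 and 27.99 CPM (-1.54 ± 0.20, adjusted p = 0.000146) and in MP41 from 86.8, 121 and 70.6 to 30.2, 31.01 and 29.1 CPM (-1.63 ± 0.18, adjusted p = 1.7e-05). No drug library reached a DMSO library in any line.

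GMNN encodes geminin, the protein that keeps CDT1 from relicensing DNA. It went from 143, 118 and 116 to 37.7, 35.2 and 30.4 CPM in 92-1 (-1.87 ± 0.11, adjusted p = 1.1e-09), from 91.8, 67.9 and 81.4 to 27.7, 34.7 and 30.6 CPM in MEL202 (-1.38 ± 0.29, adjusted p = 0.00473) and from 69.5, 53.04 and 104 to 33.5, 39.7 and 41.4 CPM in MP41 (-0.98 ± 0.21, adjusted p = 0.00241). The RNA of GMNN was thus lower together with that of CDT1, and no protein was measured. The groups did not overlap in any line, though DMSO replicates of MP41 varied widely. MCM2 went from 89.8, 77.5 and 85.7 to 30.9, 21.6 and 16.8 CPM in 92-1 (-1.87 ± 0.17, adjusted p = 1.55e-07). Its MEL202 libraries went from 27.4, 46.03 and 45.5 to 21.7, 22.5 and 19.6 CPM (-0.90 ± 0.28, adjusted p = 0.0358), a call that was lost without DMSO 24 h replicate 2 or 3 or any 1 FHT-1015 24 h library. In MP41 it went from 70.1, 101 and 64.9 to 25.9, 14.8 and 21.5 CPM (-1.92 ± 0.25, adjusted p = 5.81e-05). Among the ring subunits MCM4 fell most in all 3 lines (-2.96, -1.86 and -2.01). MCM7 held between 9.31% and 11.8% of the summed CPM of the set on average in each experiment.

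The 6 genes of helicase activation were lower in every line, with medians of -2.58, -1.49 and -1.58 in 92-1, MEL202 and MP41. CDC45, which joins the MCM ring and GINS in the moving helicase, went from 87.7, 74.9 and 72.7 to 12.7, 10.2 and 7.45 CPM in 92-1 (-2.96 ± 0.16, adjusted p = 4.04e-10). It went from 45.6, 29.3 and 39.6 to 8.98, 14.7 and 12.6 CPM in MEL202 (-1.66 ± 0.28, adjusted p = 0.00107) and from 44.2, 49.04 and 50.01 to 15.2, 14.7 and 18.4 CPM in MP41 (-1.57 ± 0.17, adjusted p = 1.14e-05). MCM10, needed to start the assembled helicase, went from 98.3, 80.3 and 73.4 to 13.2, 11.6 and 8.32 CPM in 92-1 (-2.94 ± 0.18, adjusted p = 2.01e-09), from 58.7, 69.5 and 65.03 to 14.8, 16.4 and 18.2 CPM in MEL202 (-1.97 ± 0.19, adjusted p = 1.71e-05) and from 72.2, 71.9 and 87.9 to 12.01, 11.5 and 16.0 CPM in MP41 (-2.55 ± 0.17, adjusted p = 1.87e-07). Both genes were separated from DMSO in every library. GINS2, a subunit of the GINS ring, had the second largest fall in 92-1, from 95.3, 82.97 and 78.9 to 10.98, 11.8 and 8.21 CPM (-3.06 ± 0.14, adjusted p = 9.29e-11), and smaller ones in MEL202 (-1.54) and MP41 (-1.55).

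The polymerase and primase genes had the medians nearest 0 of any role in each line, a difference that was not tested. All 7 were lower in 92-1 (median -1.34), 3 of 7 in MEL202 (-0.88) and 5 of 7 in MP41 (-0.69). The MEL202 count was 1 without FHT-1015 24 h replicate 2 or 3, where POLA1 and POLE2 were lost, 6 without FHT-1015 4 h replicate 2, with limma-voom, with all 48 libraries or with only the samples compared, and 7 with GC and length offsets. The MP41 count was 3 without DMSO 24 h replicate 1, and 2 without FHT-1015 24 h replicate 2 or 3, where POLA1, POLD1 and POLE2 were lost, or with only the samples compared. POLE, the catalytic subunit of the leading strand polymerase, had the smallest mean fall of all members over the lines, with -0.86 ± 0.11 in 92-1, -0.39 ± 0.32 in MEL202 (adjusted p = 0.459) and -0.80 ± 0.20 in MP41. Its second subunit POLE2 went from 10.3, 9.29 and 9.65 to 4.61, 3.09 and 3.34 CPM in MEL202 (-1.41 ± 0.37, adjusted p = 0.0164), which was lost without DMSO 24 h replicate 1 or FHT-1015 24 h replicate 2 or 3. In MP41 POLE2 went from 15.1, 4.801 and 19.3 to 6.87, 7.11 and 6.24 CPM (-0.96 ± 0.35, adjusted p = 0.0448), with DMSO replicate 2 below the drug libraries. That call was lost without any 1 of the MP41 DMSO 4 h libraries, FHT-1015 4 h replicate 2, DMSO 24 h replicate 1 or 3, or any 1 of the FHT-1015 24 h libraries, and with the replicate block (adjusted p = 0.0663), reads summed over the stranded columns (adjusted p = 0.051) or only the samples compared (adjusted p = 0.12). Without DMSO 24 h replicate 3 the log2 fold change was -0.62. PRIM1, the catalytic primase subunit, showed the same low library: MP41 DMSO held 7.63, 1.09 and 16.4 CPM and FHT-1015 7.47, 7.74 and 9.68 CPM (-0.02 ± 0.54, adjusted p = 0.978). In MP41 called members with overlapping libraries were POLA1, POLE2, RFC3, RFC4 and RRM1. Leaving that DMSO library out left the MP41 count at 41, and leaving out DMSO replicate 1 or 3 gave 36 or 39.

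Of the 8 genes of the clamp, its loader and strand joining, 8, 7 and 8 were lower in 92-1, MEL202 and MP41 (medians -1.87, -1.07 and -0.97). The MEL202 count was 4 without DMSO 24 h replicate 1 or FHT-1015 24 h replicate 1, and 3 without FHT-1015 24 h replicate 3, where RFC2, RFC4, RFC5 and LIG1 were not called. In MP41 the RFC3 call was lost with the replicate block (adjusted p = 0.0528) and with only the samples compared (adjusted p = 0.101). It was also lost without any 1 of 7 of the 12 libraries, with -0.42 without DMSO 24 h replicate 3. The MP41 call of RFC4 was lost with only the samples compared (adjusted p = 0.0685). It was also lost without DMSO 24 h replicate 1 or FHT-1015 24 h replicate 1 or 2. PCNA (chromosome 20, 5114953 to 5126626, minus strand) went from 351, 288 and 284 to 65.4, 56.6 and 48.2 CPM in 92-1 (-2.44 ± 0.13, adjusted p = 3.59e-10). It went from 225, 135 and 183 to 53.9, 57.7 and 58.7 CPM in MEL202 (-1.67 ± 0.35, adjusted p = 0.00445) and from 202, 168 and 242 to 101, 105 and 125 CPM in MP41 (-0.88 ± 0.16, adjusted p = 0.000969). The groups were apart in each line, and the fall differed in size among lines (adjusted p = 0.0143). FEN1, the flap nuclease of Okazaki fragment maturation, fell most in this role, by log2 fold changes of -2.66, -1.73 and -2.28. RPA2, a subunit of the single strand binding protein, was lower in 92-1 (-1.18 ± 0.11) and MP41 (-0.95 ± 0.17) but not called in MEL202 (-0.26 ± 0.25, adjusted p = 0.526), and this difference among lines was past the test (adjusted p = 0.0392). RFC5 lies across from WSB2, and its MEL202 call was lost when reads were summed over the stranded columns (-0.61, adjusted p = 0.132) and also without any 1 of DMSO 24 h replicates 1 and 3 or the FHT-1015 24 h libraries (adjusted p from 0.0758 to 0.0878).

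The nucleotide supply genes were lower in 4, 3 and 4 of 4 cases (medians -1.86, -0.92 and -1.09). In MEL202 the TK1 call (-0.74) was lost with RLE normalisation (adjusted p = 0.0508) and with the replicate block (adjusted p = 0.0565). It was also lost without DMSO 24 h replicate 1 or 3, FHT-1015 4 h replicate 3 or any 1 of the FHT-1015 24 h libraries. RRM2, the inducible subunit of ribonucleotide reductase, went from 101, 93.8 and 91.8 to 19.3, 15.5 and 13.6 CPM in 92-1 (-2.57 ± 0.13, adjusted p = 1.98e-10). In MEL202 it went from 125, 123 and 132 to 56.9, 55.2 and 56.5 CPM (-1.17 ± 0.20, adjusted p = 0.00115), and in MP41, which had the most of it, from 308, 232 and 348 to 108, 99.2 and 112 CPM (-1.48 ± 0.15, adjusted p = 9.81e-06). Its fall had the smallest p of any member in the test among lines (adjusted p = 0.000171). TYMS, thymidylate synthase, went from 21.1, 13.7 and 18.98 to 5.32, 5.31 and 4.31 CPM in 92-1 (-1.86 ± 0.17, adjusted p = 2.28e-07), from 18.4, 17.3 and 16.9 to 8.01, 8.73 and 7.74 CPM in MEL202 (-1.11 ± 0.25, adjusted p = 0.00741) and from 25.5, 23.8 and 24.3 to 8.54, 12.2 and 12.2 CPM in MP41 (-1.16 ± 0.19, adjusted p = 0.000415). Every drug library of both genes was below every DMSO library of its line. RRM1, the large reductase subunit, was called lower in 92-1 (-1.38) and MP41 (-0.69) and not in MEL202 (-0.52 ± 0.24, adjusted p = 0.162). The MP41 call was lost in the fit of only the samples compared (adjusted p = 0.0682), without DMSO 24 h replicate 1 (adjusted p = 0.0842) and without FHT-1015 24 h replicate 2 (adjusted p = 0.0866).

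All 3 genes of chromatin behind the fork were lower in each line (medians -2.49, -1.49 and -2.09). UHRF1 had the largest mean fall over the lines of any member. It went from 158, 160.3 and 152 to 29.3, 21.9 and 20.4 CPM in 92-1 (-2.72 ± 0.13, adjusted p = 1.6e-10), from 99.1, 80.7 and 86.8 to 12.2, 10.03 and 11.5 CPM in MEL202 (-2.98 ± 0.22, adjusted p = 1.51e-06) and from 110.2, 127 and 108 to 15.6, 13.04 and 19.1 CPM in MP41 (-2.85 ± 0.17, adjusted p = 1.41e-07). The drug libraries of UHRF1 lay within 10.03 to 29.3 CPM in all lines, with no overlap with DMSO. CHAF1A and CHAF1B, subunits of the chromatin assembly factor that deposits histones on new DNA, fell by log2 fold changes from -2.49 (CHAF1A, 92-1) to -1.43 (CHAF1B, MEL202).

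Claspin (CLSPN), which couples a stalled fork to the kinase CHEK1, went from 56.9, 41.02 and 40.1 to 8.25, 6.74 and 4.48 CPM in 92-1 (-2.84 ± 0.22, adjusted p = 2.93e-08). It went from 37.2, 49.5 and 36.02 to 14.7, 8.93 and 12.6 CPM in MEL202 (-1.76 ± 0.26, adjusted p = 0.000414) and from 66.7, 51.7 and 75.8 to 18.3, 12.6 and 18.7 CPM in MP41 (-1.97 ± 0.19, adjusted p = 4.77e-06). No libraries overlapped. The other fork checkpoint gene, TIMELESS, part of the fork protection complex, was lower in 92-1 (-1.35) and MP41 (-0.69) and not called in MEL202 (-0.46 ± 0.22, adjusted p = 0.17).

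Both cyclins E were lower at 24 h of FHT-1015 in each line. CCNE1 in 92-1 was at 7.57, 8.16 and 8.21 CPM after 24 h of FHT-1015 and at 16.03, 14.6 and 14.7 CPM with DMSO (-0.92 ± 0.12, adjusted p = 5.19e-06), and no further fall after 4 h was detected (difference between the times 0.00 ± 0.17, adjusted p = 0.997). In MP41 CCNE1 went from 14.1, 14.3 and 17.5 to 2.99, 4.54 and 5.33 CPM (-1.83 ± 0.21, adjusted p = 2.16e-05) and changed between the times (-1.92 ± 0.29, adjusted p = 0.000599). In MEL202 it went from 11.4, 7.83 and 12.05 to 3.25, 5.36 and 3.68 CPM (-1.35 ± 0.27, adjusted p = 0.00327), with a difference between the times that missed the threshold (-1.07 ± 0.37, adjusted p = 0.109). CCNE1 was the only member of those differing among lines that fell least in 92-1 (adjusted p = 0.0486). CCNE2, the second cyclin E (chromosome 8, 94879770 to 94896678, minus strand), went from 13.2, 9.38 and 9.74 to 1.64, 1.902 and 1.69 CPM in 92-1 (-2.63 ± 0.20, adjusted p = 2.64e-08), from 15.4, 21.96 and 19.8 to 3.98, 4.47 and 3.58 CPM in MEL202 (-2.24 ± 0.28, adjusted p = 0.000117) and from 14.6, 8.92 and 28.1 to 3.46, 3.11 and 3.85 CPM in MP41 (-2.31 ± 0.33, adjusted p = 0.000117). Its groups did not overlap, but CCNE2 lies across from INTS8 and NDUFAF6 on the other strand. The CCNE2 change at 24 h minus that at 4 h was -1.99 ± 0.27, adjusted p = 2.36e-05 in 92-1, -1.72 ± 0.38, adjusted p = 0.0154 in MEL202 and -2.14 ± 0.44, adjusted p = 0.00449 in MP41. With reads summed over the stranded columns its 24 h changes were smaller, at -1.59, -1.53 and -1.01, and the MP41 call was lost (adjusted p = 0.0992).

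The drug effect grew between the times. The change at 24 h minus that at 4 h was negative and past the test for 42 of 43 members in 92-1 with FHT-1015 (background 24.3% lower), 23 in MEL202 (3.9%), 33 in MP41 (10.9%) and 43 in 92-1 with IDE196 (17.2%). CCNE1 was the member not called in 92-1. MEL202's count dropped to 12 without FHT-1015 24 h replicate 2, and to between 13 and 15 without any of the other 24 h FHT-1015 libraries or DMSO 24 h replicates 1 or 3. In DMSO cells edgeR called 0 of 43 members between 24 h and 4 h in each of the 4 sets (background 0.344%, 0%, 2.59% and 0.266% in 92-1, MEL202, MP41 and the IDE196 set). In the same order the members' log2 fold changes ran from -0.17 to 0.15, -0.39 to 0.42, -0.76 to 0.59 and -0.18 to 0.51. At an unadjusted p under 0.05 there were 0, 0, 11 and 2 members. In MP41 DESeq2 called 2 members (1792 of all 15543 genes), limma-voom 21 (8304 of 15543) and the fit with all 48 libraries 8 (2895 of 18871). The members' share was below that of all genes with DESeq2, and near it with limma-voom and in the fit with all 48 libraries. Without DMSO 24 h replicate 3 edgeR called 17 members and 6835 of all 16035 genes, a share of members near that of all genes. The causes were not tested. DESeq2 and limma-voom called none in the other sets.

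Whether the 3 lines responded alike was tested with 1 fit over their 36 libraries. At 4 h only UHRF1 differed among lines (adjusted p = 0.0369, background 1.38%), whose log2 fold change was -1.16 in 92-1 cells, -0.54 in MEL202 cells and -0.14 in MP41 cells. That call was lost without any 1 of the 92-1 DMSO 4 h libraries, 92-1 FHT-1015 4 h replicate 1 or 3, MP41 DMSO 4 h replicate 2 or 3, or MP41 FHT-1015 4 h replicate 1 or 3. At 24 h 19 of 43 differed (background 12%), and for 18 of the 19 the fall was largest in 92-1. The strongest besides RRM2 were GINS2, MCM6, MCM4, CDC45 and CDC6. MCM6 went by -2.02, -1.29 and -1.12 in 92-1, MEL202 and MP41. The count was 9 without 92-1 FHT-1015 24 h replicate 3, 10 without 92-1 DMSO 24 h replicate 1, and 37 with limma-voom, which called 9600 of all 18395 genes.

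IDE196 also lowered the whole set by 24 h. There 43 of 43 members were lower in 92-1 (background 29.4% lower, 28.7% higher; median -1.79, beside 0.029 for all genes). At 4 h of IDE196 5 members were lower and 1 higher (background 9.3% lower, 6.89% higher; median -0.02, beside 0.014), a share of 5 of 43 near the background, and all 6 calls were lost under at least 1 other setting or without 1 library. CDC6 went from 96.7, 109 and 92.7 to 68.2, 76.6 and 62.5 CPM (-0.52 ± 0.10, adjusted p = 0.00187) and CCNE2 from 6.48, 7.27 and 5.55 to 5.11, 3.77 and 3.57 CPM (-0.63 ± 0.19, adjusted p = 0.0349). The other falls were MCM10 (-0.52), FEN1 (-0.41) and GMNN (-0.34). The rise was POLD1, the catalytic subunit of polymerase delta, with 115, 103 and 101 CPM against 91.9, 81.97 and 77.98 (0.34 ± 0.09, adjusted p = 0.0118). None of these 6 overlapped between drug and DMSO, and how often that held over all genes was not counted. Without IDE196 4 h replicate 3 there were 2 calls, and in the fit with all 48 libraries none.

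At 24 h of IDE196 the largest falls were in MCM10, from 74.2, 59.8 and 60.3 to 5.29, 7.98 and 5.73 CPM (-3.36 ± 0.15, adjusted p = 1.79e-11), and CDC6, from 110.2, 90.9 and 87.3 to 10.2, 11.4 and 10.2 CPM (-3.18 ± 0.12, adjusted p = 2.28e-12). UHRF1 went from 135, 123 and 139 to 15.1, 18.2 and 11.1 CPM (-3.16 ± 0.15, adjusted p = 3.09e-11), CLSPN from 47.7, 43.9 and 40.1 to 5.08, 6.495 and 4.81 CPM (-3.004 ± 0.14, adjusted p = 2.25e-11) and CDC45 from 46.8, 36.8 and 37.5 to 4.995, 5.25 and 5.403 CPM (-2.95 ± 0.13, adjusted p = 1.98e-11). Every IDE196 library of these genes was far below every DMSO library. PCNA went from 186, 156 and 185 to 41.3, 39.4 and 31.7 CPM (-2.23 ± 0.11, adjusted p = 3.47e-11) and RRM2 from 110.3, 90.6 and 83.2 to 18.2, 22.4 and 13.9 CPM (-2.38 ± 0.16, adjusted p = 2.25e-09). GMNN, MCM2 and TYMS fell by -1.799 ± 0.10, -1.79 ± 0.08 and -1.11 ± 0.12. CCNE1 and CCNE2 fell by -1.199 ± 0.14 and -2.61 ± 0.23, and POLE2 by -2.47 ± 0.25. CDT1 was the exception in size, from 146, 147 and 133 to 105, 130.0 and 105 CPM (-0.33 ± 0.10, adjusted p = 0.0104), with the groups just apart. That call was lost without IDE196 24 h replicate 1 and in the fit with all 48 libraries, where PRIM1 was lost too. By role the medians were -1.80 for licensing, -2.26 for helicase activation, -1.38 for polymerases and primase, -1.53 for clamp and loader, -1.27 for nucleotide supply, -2.44 for chromatin, -2.08 for the fork checkpoint and -1.90 for the cyclins.

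**Figure D4:**
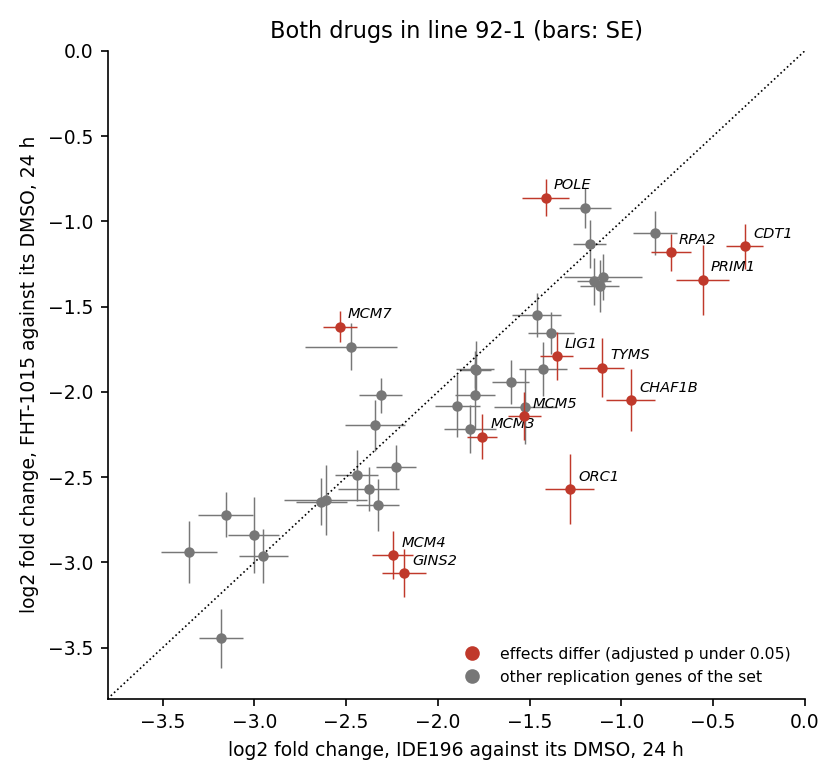
Log2 fold change at 24 h in 92-1 with FHT-1015 (y axis) against IDE196 (x axis), each drug against its own DMSO. Points are the 43 genes with standard errors, and the dotted line marks equal effects. Red marks the 13 genes whose effects differed (adjusted p under 0.05). All points lie below 0 on both axes; MCM7 lies farthest to the side of a larger IDE196 effect.

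The effects of the 2 drugs were compared directly within 92-1 in 1 fit over 24 libraries, each against its own DMSO. At 4 h 7 of 43 members differed (background 24.6%), a share below that of all genes. UHRF1 (-0.91 ± 0.19, adjusted p = 0.000893), MCM2 (-0.81 ± 0.18, adjusted p = 0.00137), CHAF1A (-0.67 ± 0.18, adjusted p = 0.00672), CCNE1 (-0.66 ± 0.17, adjusted p = 0.00571), MCM4 (-0.58 ± 0.17, adjusted p = 0.0147) and CDT1 (-0.55 ± 0.17, adjusted p = 0.0155) were lower with FHT-1015 than with IDE196, and POLE2 (0.97 ± 0.26, adjusted p = 0.00583) was higher. At 24 h 13 differed (background 33%), a share near that of all genes. MCM7, whose gene on chromosome 7 (100092728 to 100101940, minus strand) also holds microRNA genes, fell less with FHT-1015: 92-1 libraries held 178, 184 and 154 CPM with FHT-1015 against 573, 506 and 504 with DMSO, and 75.1, 83.5 and 67.5 CPM with IDE196 against 468, 417 and 426 (difference 0.91 ± 0.13, adjusted p = 2.1e-06). POLE was the other gene that fell less with FHT-1015 (0.55 ± 0.17, adjusted p = 0.0158). The other 11 fell more with FHT-1015, among them ORC1, the largest origin recognition subunit (-1.29 ± 0.25, adjusted p = 0.000183), CHAF1B (-1.104 ± 0.23, adjusted p = 0.000497), GINS2 (-0.88 ± 0.19, adjusted p = 0.000522) and CDT1 (-0.82 ± 0.17, adjusted p = 0.000423), then PRIM1, TYMS, MCM4, MCM5, MCM3, RPA2 and LIG1 with differences from -0.79 to -0.44. A member not called here is not shown to respond alike to both drugs. In the fit with all 48 libraries the counts were 1 at 4 h and 9 at 24 h.

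The sum of the melanocyte markers was lower in every library at 24 h of FHT-1015 than in any DMSO library of the same line and time. With IDE196 the groups overlapped in this sum. At 24 h it was 4725 to 5208 CPM with FHT-1015 in 92-1 against 19080 to 22187 CPM with DMSO, 2857 to 3267 against 7913 to 9806 CPM in MEL202, and 5736 to 6564 against 12455 to 12990 CPM in MP41. With IDE196 it was 16820 to 18970 CPM against 15767 to 18319 CPM. The 12 markers of other cell types summed to 11.9 to 13.5 against 4.18 to 4.74 CPM in 92-1 with FHT-1015 at 24 h, 34.96 to 43.8 against 7.83 to 9.37 in MEL202, 24.8 to 34.7 against 22.6 to 42.5 in MP41, and 17.9 to 32.04 against 10.02 to 19.995 with IDE196. At 4 h the melanocyte sum was already apart in 92-1 with FHT-1015, at 15232 to 17162 against 19904 to 21094 CPM, while it overlapped in MEL202 (6402 to 9149 against 8608 to 9886), MP41 (12418 to 15202 against 13371 to 17135) and with IDE196 (15791 to 16772 against 15060 to 16746). The other markers at 4 h were apart in MEL202 (12.2 to 22.9 against 7.88 to 11.2 CPM) and overlapped in 92-1 (3.55 to 4.38 against 3.41 to 4.96), MP41 (15.1 to 35.8 against 19.8 to 22.2) and with IDE196 (19.4 to 28.5 against 18.3 to 39.8). Their part in the fall of the replication genes was not tested.

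Most other genes of replication were also lower at 24 h in 92-1. A list of 48 (among them the other ORC subunits, CDC7 and its partner DBF4, further polymerase subunits and nucleotide enzymes) had 41 lower and 2 higher in 92-1 at 24 h of FHT-1015 (median -1.15), 19 lower in MEL202 (-0.73), 22 lower and 1 higher in MP41 (-0.57), and 43 lower and 1 higher with IDE196 (-1.04). Of all genes, 31.4%, 10.1%, 18.7% and 29.4% were called lower in these comparisons, and 29.2%, 8.69%, 17.4% and 28.7% higher. How far this list and the members differ was not tested. The MEL202 count ran from 8 to 12 without any 1 of DMSO 24 h replicates 1 and 3 or the FHT-1015 24 h libraries, and was 31 with GC and length offsets, all 48 libraries or only the samples compared, and 34 with limma-voom. The count higher in MP41 was 9 with limma-voom or without DMSO 24 h replicate 3, 3 with no low-count filter or all 48 libraries, 2 with the replicate block, and 0 with only the samples compared or without DMSO 24 h replicate 1 or FHT-1015 24 h replicate 2 or 3. With all 48 libraries the count higher in 92-1 at 24 h of FHT-1015 was 1, and with IDE196 it was 2 with limma-voom or GC and length offsets. At 4 h the counts were 6 lower and 4 higher in 92-1 with FHT-1015, beside 16.7% and 12.9% of all genes. They were 0 in MEL202 and MP41 by edgeR (2 and 1 unadjusted), and 7 lower with IDE196, beside 9.3% of all genes. In 92-1 with FHT-1015 these counts crossed the share of all genes with the setting: 13 were lower with the replicate block (2960 of all 15685 genes), 12 lower with GC and length offsets (2830 of 15685), 11 higher with limma-voom (3124 of 15685), and 2 lower and 0 higher with all 48 libraries (1325 and 764 of 18871). The higher count was 1 without any 1 of the DMSO 4 h libraries or FHT-1015 4 h replicate 2. With IDE196 the count lower was 1 with all 48 libraries and 4 without IDE196 4 h replicate 3. CDC25A, the phosphatase that frees CDK2 to act, was among the largest falls in each 24 h comparison, with log2 fold changes of -2.86, -2.62, -2.85 and, with IDE196, -2.86. It was also the largest fall of the list at 4 h of IDE196 (-1.08 ± 0.08, adjusted p = 1e-07), followed by TIPIN (-0.81), whose call was lost with all 48 libraries (adjusted p = 0.171). DSCC1, part of a clamp loader used in sister chromatid cohesion, fell by -2.696 ± 0.15 at 24 h of IDE196.

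CDK2, the partner kinase of cyclin E, was called lower at 4 h of FHT-1015 in 92-1 and at 24 h of both drugs. Its 92-1 libraries held 159.6, 155 and 118 CPM after 4 h of FHT-1015 and 486, 475 and 407 CPM with DMSO (-1.66 ± 0.12, adjusted p = 5.88e-08). At 24 h they held 35.1, 40.02 and 33.2 against 491, 448 and 418 CPM (-3.65 ± 0.13, adjusted p = 7.46e-12). MEL202 and MP41 gave -2.45 ± 0.25 and -3.09 ± 0.20 at 24 h, and IDE196 gave -0.28 ± 0.09, adjusted p = 0.0138 in 92-1, a call lost with all 48 libraries (adjusted p = 0.313) and without IDE196 24 h replicate 3 or IDE196-set DMSO 24 h replicate 4. Tested directly in 92-1, the CDK2 effect of FHT-1015 minus that of IDE196 was -1.80 ± 0.15 at 4 h (adjusted p = 1.24e-09) and -3.37 ± 0.16 at 24 h (adjusted p = 2.41e-15). CDK2 lies across from the melanosome gene PMEL on the other strand, whose own level ranged from 642 to 9734 CPM in the 92-1 FHT-1015 libraries and from 6048 to 7888 CPM in the IDE196 set. Reads of the neighbour counted to CDK2 and reads of CDK2 cannot be told apart in these libraries. With reads summed over the stranded columns CDK2 gave -1.84 at 4 h in 92-1 and -3.51, -2.28 and -3.24 at 24 h in 92-1, MEL202 and MP41. These sums also hold reads that lie in both CDK2 and PMEL, so they cannot tell the genes apart.

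A few genes of that list rose. In 92-1 at 4 h of FHT-1015 these were led by DNA2, a nuclease and helicase of flap processing (0.67 ± 0.13, adjusted p = 0.0014), and HELLS, a chromatin remodeler (0.34 ± 0.11, adjusted p = 0.0277), while ASF1B, a histone chaperone, fell (-0.62 ± 0.17, adjusted p = 0.0133). All 3 calls were lost with all 48 libraries (adjusted p = 0.106 for DNA2, 0.433 for HELLS and 0.0749 for ASF1B). The HELLS call was also lost without any 1 of the DMSO 4 h libraries or FHT-1015 4 h replicate 2, and that of ASF1B without DMSO 4 h replicate 2. HELLS was called lower at 4 h of IDE196 in 92-1 and at 24 h of FHT-1015 in MEL202. Both of these calls were lost under other settings. At 24 h POLD4, the smallest subunit of polymerase delta, rose in 92-1 with FHT-1015 (1.29 ± 0.27, adjusted p = 0.000645) and with IDE196 (1.19 ± 0.33, adjusted p = 0.00549). RRM2B, the p53-inducible reductase subunit, rose in 92-1 (0.61 ± 0.13, adjusted p = 0.000647) and MP41 (1.24 ± 0.39, adjusted p = 0.0242) at 24 h of FHT-1015. The 92-1 call was lost with all 48 libraries (adjusted p = 0.116), and the MP41 call with only the samples compared (adjusted p = 0.096) and without DMSO 24 h replicate 1 or FHT-1015 24 h replicate 2 or 3. The MP41 DMSO libraries of RRM2B were spread over 63.4, 27.6 and 146 CPM, below the FHT-1015 libraries at 175, 188 and 195 CPM. At 4 h of FHT-1015 RRM2B was called lower in 92-1, a call lost with all 48 libraries (-0.53, adjusted p = 0.347).

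A list of 30 G2/M genes was set beside the members and had 27 lower in 92-1 (median -0.83), 1 in MEL202 (-0.18), 13 in MP41 (-0.54) and 25 with IDE196 (-0.88) at 24 h, and none higher. The shares of all genes called lower were 31.4%, 10.1%, 18.7% and 29.4%. The list's share in MEL202 was thus below the background in that line's own fit. The MEL202 count was 0 without any 1 of DMSO 24 h replicates 1 and 3 and the FHT-1015 24 h libraries. It was 6 with GC and length offsets (2593 of all 15913 genes lower) or all 48 libraries (3074 of 18871). With only the samples compared it was 8 (3133 of 15261), and with limma-voom 10 (4340 of 15913). Under these other settings the list's share was not below that of all genes. The MP41 count was 22 without DMSO 24 h replicate 2 and 24 with GC and length offsets, and 4 genes of the list were called higher without DMSO 24 h replicate 3. At 4 h there were 3 lower and 1 higher in 92-1 with FHT-1015, 3 higher with IDE196, and 0 in MEL202 and MP41 by edgeR (1 and 0 unadjusted). In 92-1 with FHT-1015 the share lower was below the 16.7% of all genes in the fit of that experiment. The count ran from 0 to 9 of 30 over the alternatives and left-out libraries, so its place against all genes depended on the setting. With IDE196 the 3 higher stood beside 6.89% of all genes, and the count was 7 with DESeq2 or GC and length offsets, 6 with limma-voom, and 5 with no low-count filter or without IDE196-set DMSO 24 h replicate 6, IDE196 4 h replicate 3 or IDE196 24 h replicate 2 or 3. The medians of the S phase members were farther from 0 than those of the G2/M list in each 24 h comparison. This difference between the lists was not tested.

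**Figure D5:**
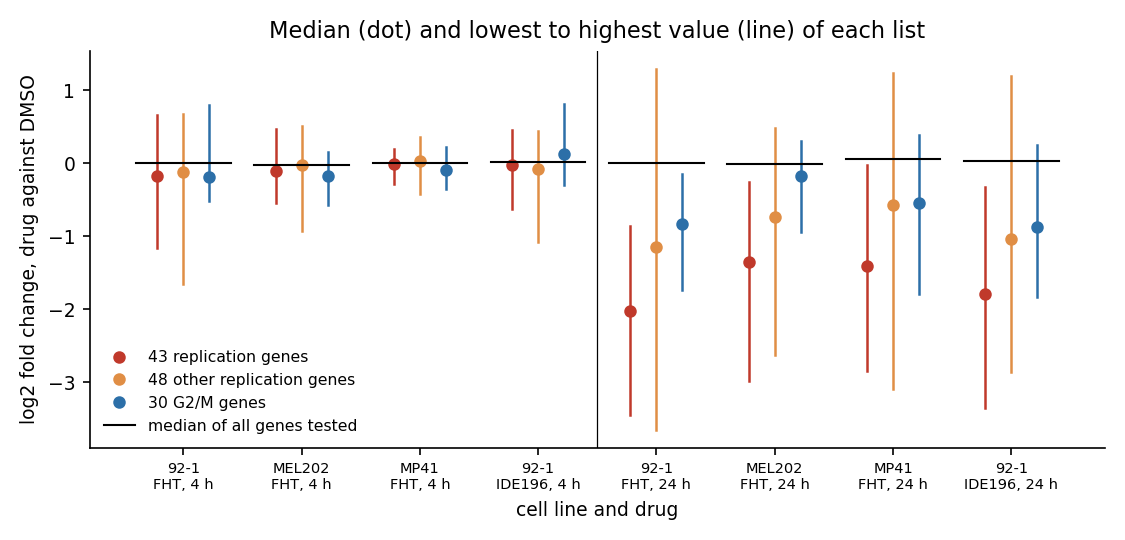
Median log2 fold change (dots) and lowest to highest value (lines) on the y axis for the 43 members, 48 other replication genes and 30 G2/M genes. The x axis holds the 8 comparisons of a drug with its own DMSO, and the black mark is the median of all genes. At 24 h the members' medians run from -2.02 to -1.35, and those of the G2/M genes from -0.88 to -0.18.

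Members with and without E2F letters in the promoter window had medians in 92-1 at 24 h of FHT-1015 of -2.02 (20 genes) and -1.90 (18 genes). The medians were -1.39 and -1.30 in MEL202, -1.39 and -1.28 in MP41, and -1.81 and -1.35 with IDE196. In 92-1 all of both groups were called lower. MEL202 had 19 of 20 against 13 of 18 called, and MP41 20 of 20 against 16 of 18. No test was made of this split, and CCNE1 and MCM10, with none of the letters in the stretch shown, fell with the rest.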

How the data were processed

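Poly-A RNA of 48 samples was sequenced with an unstranded kit (NEBNext Ultra), per the labels' protocols. The deposited files hold raw counts of reads per gene from the authors, with 1 unstranded and 2 stranded columns in the layout of STAR's gene counter, and the unstranded count was used. The submitters' processing notes name the build hg38 and limma, and the aligner's version and the gene annotation are not given in the sources used here. Gene symbols were taken from GENCODE 29, which held 58552 of the 58870 genes listed. Spike-in rows (92) had 0 reads. Reads in more than 1 gene (9.35% to 11.83% of a library) are in no gene's count. The sum of the stranded columns, used as an alternative, gives a read in a gene and its antisense neighbour to both genes. Groups were taken from the labels.

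Each experiment of 12 libraries had its own model (edgeR 4.0.16, run under R 4.3.3; filterByExpr against low counts, TMM scaling, quasi-likelihood F-test, Benjamini-Hochberg over all genes tested, called at an adjusted p under 0.05). It covered 15685 genes in 92-1 with FHT-1015, 15913 in MEL202, 15543 in MP41 and 15437 in 92-1 with IDE196. Lines were compared in 1 fit of 36 libraries (18395 genes) and drugs in 1 fit of 24 (16917 genes). CPM are per TMM-scaled library size, and ± beside a log2 fold change is its SE (the fold change divided by the root of F). No 2 libraries held identical counts. The scripts were tested on simulated data. Alternatives were RLE normalisation, library size alone, no low-count filter, DESeq2 1.42.0, limma-voom with quality weights (limma 3.58.1), only the samples compared, all 48 libraries in 1 fit, a replicate block, the sum of the stranded columns, GC and length offsets, and each library left out. The members, lists and tests were chosen with earlier results of these data known. Named genes were 14 fixed members, the 2 members with the largest rises and the 2 with the largest falls among those called without overlap in each drug comparison, and the same 2 and 2 of the other replication genes.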

Additional observations from a re-analysis of the deposited data

Results flagged for a closer look

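The effect of FHT-1015 differed among the 3 lines for 1 member at 4 h and for 19 at 24 h, by the test of the difference itself in 1 fit over 36 libraries. At 4 h the member was UHRF1 (adjusted p = 0.0369). At 24 h the adjusted p was 0.000171 for RRM2, 0.000471 for GINS2, 0.0018 for MCM6, 0.00198 for MCM4, 0.00324 for CDC45, 0.00542 for CDC6 and 0.00658 for RFC2. It was 0.0117 for GINS4, 0.0119 for MCM5, 0.0134 for MCM3, 0.0143 for PCNA, 0.016 for CHAF1A, 0.0213 for TK1, 0.0249 for MCM10 and 0.0283 for FEN1. It was 0.0392 for RPA2, 0.0396 for POLA1, 0.0455 for LIG1 and 0.0486 for CCNE1. CCNE1 fell least in 92-1, and the other 18 fell most there.

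The drug effect also differed between 24 h and 4 h, for 42 members in 92-1 with FHT-1015, 23 in MEL202, 33 in MP41 and 43 in 92-1 with IDE196.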

How the results depend on the processing

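No member changed direction past the threshold under any alternative. The counts of members lower at 24 h kept within 1.5 times of 43, 36, 41 and 43 in every alternative, and 43, 28, 34 and 41 of those calls held under all alternatives and without any 1 library. The counts at 4 h depended more on the setting. With all 48 libraries in 1 fit 6 in place of 13 members were called in 92-1 with FHT-1015, 0 in place of 6 with IDE196, 1 in place of 7 between the drugs, and 8 in place of 0 between the times in MP41 DMSO. For that DMSO comparison the count was 3 with no low-count filter, 2 with DESeq2, 21 with limma-voom and 1 with GC and length offsets, and in the DMSO of the IDE196 set it was 1 with no low-count filter. Among lines at 4 h, in place of 1, it was 0 with no filter, 2 with DESeq2, 3 with limma-voom and 2 with GC and length offsets, and among lines at 24 h it was 37 with limma-voom in place of 19, where limma-voom called 9600 of all 18395 genes in place of 2211. The causes were not tested. Leaving out 1 library gave 8 to 15 members in 92-1 at 4 h of FHT-1015, 2 to 7 with IDE196, 0 to 1 and 9 to 26 among lines at 4 h and 24 h, 12 to 25 between the times in MEL202, and 0 to 17 between the times in MP41 DMSO. It gave 28 to 39 in MEL202 and 35 to 41 in MP41 at 24 h.

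The samples were not treated as paired, since only 7 of 18 same-numbered pairs of drug and DMSO libraries had correlated deviations over 0.1 (range -0.322 to 0.508), and the labels name no shared batch. As a hint from the data and not the design, 12 of 18 correlated best with their own number, among them all pairs of MP41. With the replicate block 16 members were called in 92-1 at 4 h, 43 at 24 h, 36 in MEL202 and 39 in MP41. No paired analysis was possible for IDE196 because its drug and DMSO samples share no replicate numbers. Depth was not varied here, and the members had at least 19 reads in every library.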
